A study of Homo sapiens with 18 samples.

Results

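The step from 24 h to 48 h without riboflavin was examined in Caco-2, a line from a human colon carcinoma that grows as intestinal epithelium. It comprised 6 of the 18 Affymetrix arrays of the study. Of these, 3 held RNA of cells kept 24 h in DMEM lacking riboflavin and 3 held RNA of cells kept 48 h in it. They were chosen by their labels and paired by replicate number, since the sample numbers count through the 6 groups in turn for each of 3 sets. The remaining arrays were 3 of depleted cells at 72 h and 3 each of cells in ordinary DMEM, which contains riboflavin, at 24, 48 and 72 h. The control arrays of 24 h and 48 h, 6 in all, served as the reference for the same interval. All media held foetal calf serum, penicillin and streptomycin. Dialysed serum was used for some experiments, and the labels do not say whether these arrays were among them. Nothing in the labels says whether replicates came from separate cultures, so every p-value measures only the spread between these samples, which may be technical.

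Riboflavin (vitamin B2) enters intestinal cells through the SLC52A transporters and is turned into the cofactors FMN and FAD by riboflavin kinase and FAD synthase. Flavoproteins that carry these cofactors serve the respiratory chain, fatty acid oxidation, the folate cycle and the oxidative folding of secreted proteins. The following regulatory programmes recur in the results. ATF4 is a transcription factor made when amino acids are short or protein folding is disturbed, and it switches on genes for amino acid synthesis, amino acid uptake and tRNA charging. Ribosome biogenesis genes encode the nucleolar proteins that process ribosomal RNA, and many are targets of MYC. NF-kB is the transcription factor of inflammatory signalling and drives chemokines such as CCL20 and CXCL8 in gut epithelium.

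The sequences below are promoter stretches of 120 bases, from RefSeq on GRCh38.p14, of 2 genes from each of these programmes that are described further on. They show the short motif by which each factor is known to bind, in capitals, on the strand of the gene.
ASNS, chr7:97872413-97872532, minus strand, amino acid response element: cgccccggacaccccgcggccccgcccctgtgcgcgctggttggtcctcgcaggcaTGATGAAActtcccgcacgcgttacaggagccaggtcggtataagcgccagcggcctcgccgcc
HERPUD1, chr16:56931910-56932029, plus strand, the same element in reverse: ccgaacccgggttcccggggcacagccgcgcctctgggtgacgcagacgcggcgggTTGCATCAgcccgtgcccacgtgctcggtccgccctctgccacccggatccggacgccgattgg
LYAR, chr4:4290023-4290142, minus strand, E-box: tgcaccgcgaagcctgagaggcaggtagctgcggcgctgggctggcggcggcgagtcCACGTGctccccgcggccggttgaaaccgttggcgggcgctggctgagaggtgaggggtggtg
DDX21, chr10:68956527-68956646, plus strand, E-box: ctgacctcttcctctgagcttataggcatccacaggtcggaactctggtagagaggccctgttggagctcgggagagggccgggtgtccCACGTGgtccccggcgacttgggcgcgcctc
CCL20, chr2:227813707-227813826, plus strand, NF-kB site core in reverse: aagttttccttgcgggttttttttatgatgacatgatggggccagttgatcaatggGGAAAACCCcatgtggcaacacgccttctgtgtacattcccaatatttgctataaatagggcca
CXCL8, chr4:73740422-73740541, plus strand, NF-kB site core: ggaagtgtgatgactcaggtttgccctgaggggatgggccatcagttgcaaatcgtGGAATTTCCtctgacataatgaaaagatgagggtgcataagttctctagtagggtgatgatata

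The motif searched was TGATGNAA for the amino acid response element, CACGTG for the E-box and GGNNTTTCC for the NF-kB core, on both strands, from 250 bases before to 50 bases after each listed start. The first was found for 15 of the 40 measured ATF4-list genes with a promoter entry, or 37.5%, against 2.97% of the 10015 tested genes with an entry and 4.46% of all 27305 genes with one. The E-box was found for 17 of 33 ribosome biogenesis genes, or 51.5%, against 12.6% and 8.77%. The NF-kB core was found for 15 of 20 genes of its list, or 75%, against 8.74% and 7.61%. A match describes letters in a window and shows no binding. The lists were made of known targets, so these shares describe how the lists were built. The HERPUD1 stretch also holds an E-box in lower case, which does not overlap the capitals.

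Values are MAS5 signals, the linear brightness of a probe set as scaled by the authors to a common trimmed mean. Differences are on the log2(signal + 16) scale as 48 h minus 24 h, which understates the change of dim genes, and each comes with its SE from a limma fit that held the set as a block. Of 12 epithelial markers 11 were above the filter on low signals, with a summed signal of 22418 to 30560 at 24 h and 22003 to 32363 at 48 h on the depleted arrays. Of 7 fibroblast markers 5 were above it, summing to 530 to 644 and 420 to 591 (COL1A1 and COL3A1 were the brightest). Of 7 leukocyte markers 4 were above it, at 298 to 371 and 302 to 455, with PTPRC below it. Of 4 endothelial markers 1 was above it, at 62.8 to 71.2 and 63.7 to 108. Set 2 stood apart, with a highest signal of 27380 to 31410 on its arrays against 6905 to 8575 in the other sets, so the counts of the larger lists are also given with a set left out.

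No probe set passed the test in depleted cells. Of 27307 probe sets tested by limma with Benjamini-Hochberg adjustment at a threshold of 0.05, 0 were called (0%), the smallest adjusted p was 0.0512, and 44 lay under 0.1, 21 of them higher and 23 lower at 48 h. At an unadjusted p under 0.05 there were 3236 probe sets, or 11.9%. Among 12319 genes, each read from 1 probe set, 1547 (12.6%) lay under that level, 583 higher (4.73%) and 964 lower (7.83%). The same interval in control cells also gave 0 called probe sets (0%), a smallest adjusted p of 0.364, and 2033 probe sets (7.44%) or 852 genes (6.92%) at an unadjusted p under 0.05. Counts called by limma in depleted cells were 90 with a pseudocount of 64, 178 when dim probe sets were left out up to the 75th percentile and 160 with a variance that followed the mean, and 49 genes were shared by these 3 settings. Centring arrays on their median moved the median of all genes in the depleted step from -0.02 to -0.11. It lowers every list median by the same amount, so a list's distance from all genes stays as it was. The values that follow are therefore measured differences and not calls, and each count of genes is to be read against these background percentages.

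The genes with the smallest p among those higher at 48 h, taken by rule, were NOX1, C3orf80, REG4, C1orf105 and NPPB. NOX1 encodes the NADPH oxidase of colon epithelium, itself an FAD enzyme. Its signal was 161, 113 and 111 in sets 1, 2 and 3 at 24 h and 360.4, 227 and 369.9 at 48 h. All 3 arrays of 48 h lay above all of 24 h, and the log2 difference was 1.20 ± 0.16 (SE, n = 3 sets, limma adjusted p = 0.0512), a 2.30-fold ratio. NPPB, the precursor of a natriuretic peptide, read 236, 166 and 228 at 24 h and 625, 563.5 and 682 at 48 h. The lowest 48 h array was above the highest of 24 h, and the difference was 1.51 ± 0.25 (limma adjusted p = 0.0736). REG4, a secreted lectin of intestinal secretory cells, read 227, 139.6 and 197 and then 502, 249.6 and 439.6, with set 2 lowest at both times and no overlap between times. Its difference was 0.99 ± 0.14 (limma adjusted p = 0.0512). C3orf80, an open reading frame of unsettled function, read 39.1, 28.7 and 15.3 and then 88.6, 56.6 and 57.3, a difference of 0.95 ± 0.13. C1orf105, another such frame, was dim at 2.8, 23.0 and 19.6 at 24 h and read 40.3, 65.9 and 40.1 at 48 h, a difference of 1.10 ± 0.17. Control cells differed over the same interval by 0.62 for NOX1, 0.37 for NPPB, -0.05 for REG4, 0.10 for C3orf80 and -0.40 for C1orf105.

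The 5 genes with the smallest p among those lower at 48 h were KLHL24, NEB, ALDH1L2, ADH6 and ESRP1. KLHL24, an adaptor of a ubiquitin ligase, read 169, 213 and 172 at 24 h and 76.2, 56.8 and 70.1 at 48 h. No array of 48 h reached the lowest of 24 h, and the difference was -1.26 ± 0.18 (limma adjusted p = 0.0512), a ratio of 2.40 between 24 h and 48 h; its 5 probe sets ranged from -1.26 to -0.23. ALDH1L2, the mitochondrial enzyme that oxidises formyltetrahydrofolate, read 120, 125 and 107 and then 74.0, 55.2 and 54.3, at -0.80 ± 0.13. ESRP1, a regulator of splicing in epithelial cells, read 758, 695.5 and 900.1 and then 485, 375 and 404, at -0.87 ± 0.15. NEB, which encodes the muscle protein nebulin, read 144, 132 and 122 and then 77.4, 63.9 and 55.1. ADH6, an alcohol dehydrogenase, read 146, 163 and 116 and then 74.0, 59.8 and 50.3. In both, the groups did not overlap, with differences of -0.87 ± 0.13 and -1.03 ± 0.17 and limma adjusted p of 0.0624 and 0.0736.

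**Figure D1:**
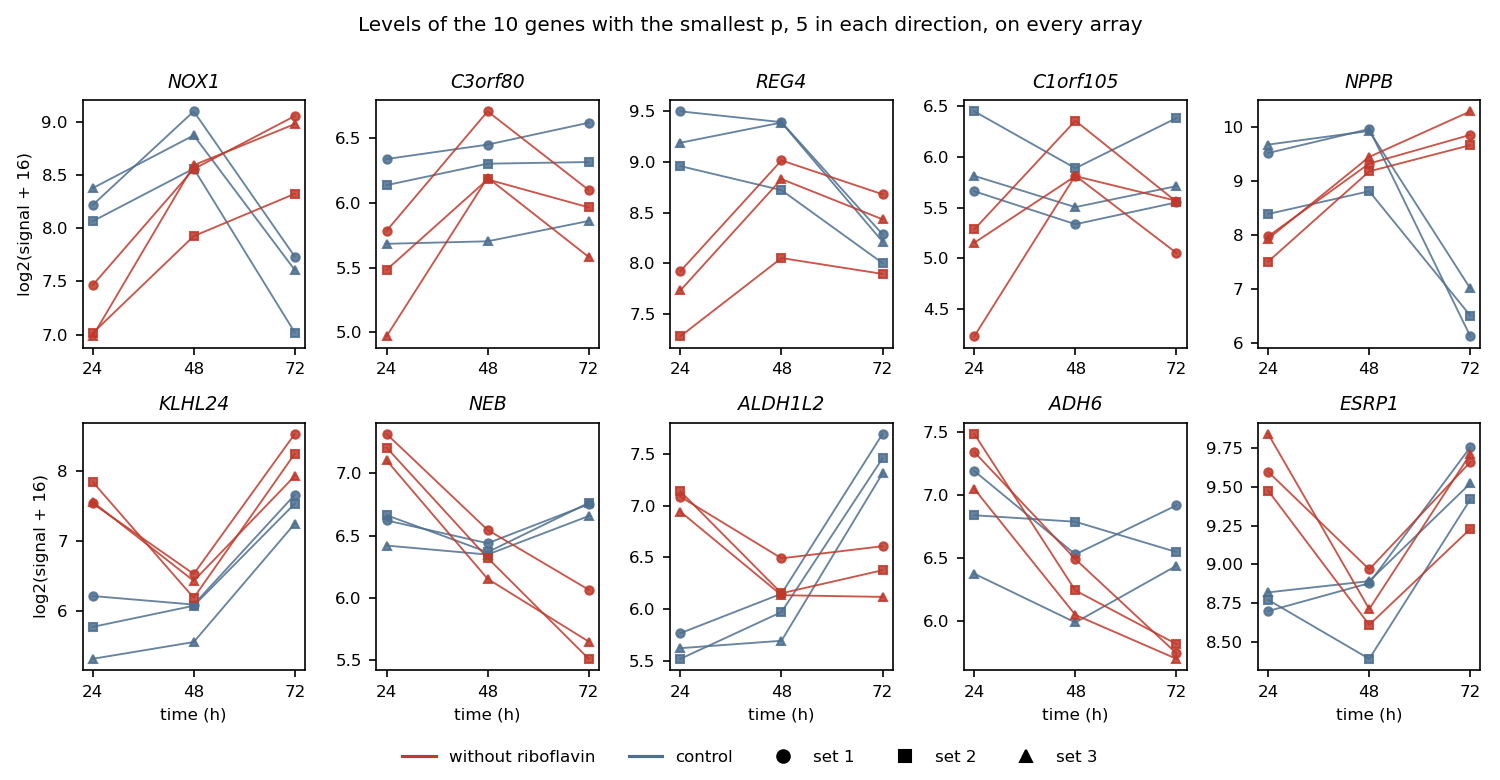
Levels of the 10 genes with the smallest p, on the log2(signal + 16) scale against time in hours; each line is 1 set (marker shape), red without riboflavin and blue in control medium. In every panel the 3 red points at 48 h lie beyond the 3 red points at 24 h. At 72 h KLHL24 and ESRP1 are higher again in all 3 depleted sets, NEB and ADH6 are lower still in all 3, and NPPB is higher still.

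Most genes of the ATF4 and amino acid response had lower values at 48 h than at 24 h of depletion. Of 49 genes in the list 47 were measured, and 42 of them had a difference below 0, against 53.5% of all genes. At an unadjusted p under 0.05, 18 were lower and 0 higher, where 7.83% of all genes were lower. The median over the list was -0.27, and -0.29, -0.34 and -0.27 in sets 1, 2 and 3, beside -0.02 over all genes. For 14 members every array of 48 h lay below every array of 24 h, which held for 5.89% of all genes. Without set 2 the lower members at that p numbered 16, without set 1 there were 10 and without set 3 there were 13, when 795, 437 and 702 of all genes were lower. By adjusted p 0 of the 47 were called, and 3, 2 and 4 were under the settings that called 90, 178 and 160 probe sets.

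Enzymes of amino acid and one-carbon metabolism are described first. ASNS makes asparagine from aspartate and is the best known target of the response. Its signal was 2611, 2131 and 1936 at 24 h and 1797, 984 and 1236 at 48 h, without overlap, and the difference was -0.76 ± 0.14 (limma adjusted p = 0.0909). Its element, shown in capitals above, lies 68 to 61 bases before the start. CTH, which makes cysteine from cystathionine, read 401, 468 and 332 and then 328, 249 and 224, a difference of -0.56 ± 0.15 in which the lowest array of 24 h was just above the highest of 48 h; its other probe set was at -0.12. PCK2, the mitochondrial phosphoenolpyruvate carboxykinase, read 616, 482 and 739.8 and then 377, 465 and 449, with set 2 almost level. SHMT2, which feeds serine carbon into mitochondrial folate, read 1094, 1178 and 1037 and then 725, 930.1 and 906, at -0.37 ± 0.14.

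Named members for transport, tRNA charging and stress follow. SLC7A11, the cystine importer, read 865, 1165 and 688 at 24 h and 671, 561 and 507 at 48 h, at -0.61 ± 0.17 and without overlap. AARS1, the alanyl-tRNA synthetase, read 1644, 2352 and 1726 and then 1269, 1560 and 1277, at -0.46 ± 0.13. HERPUD1, a component of the degradation of misfolded endoplasmic reticulum proteins, read 2065, 2983 and 1724 and then 1742, 1806 and 1225. Its groups overlapped, since set 1 at 48 h was above set 3 at 24 h, and the difference was -0.48 ± 0.13. Of 2 further regulators, picked after their values were seen, DDIT3 differed by -0.61 ± 0.20 and DDIT4, an inhibitor of mTORC1, by -0.70 ± 0.29. SLC7A5, an importer of large neutral amino acids, singled out after its value was seen, had the highest difference of the list, at 0.54.

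**Figure D2:**
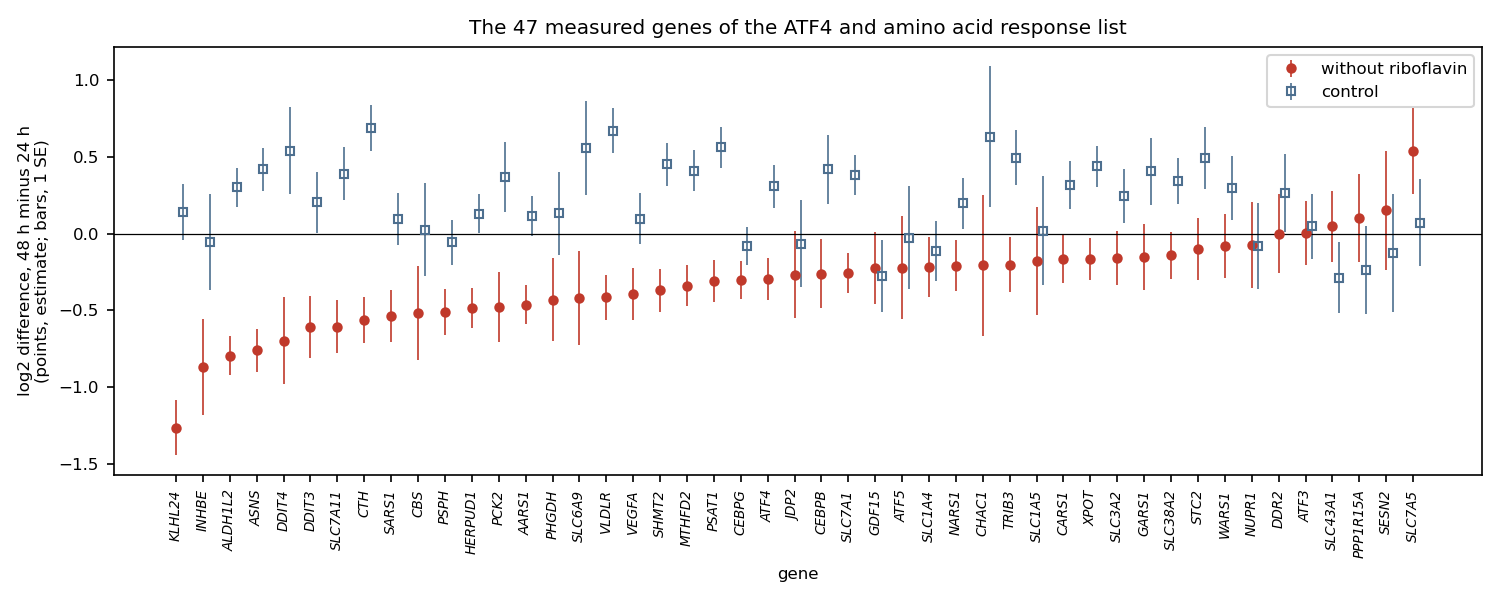
Log2 difference, 48 h minus 24 h, for each of the 47 measured genes on the ATF4 list, ordered by the value in depleted cells (red circles) with the control value beside it (blue squares); bars are 1 SE. Red points lie below 0 for 42 genes, and KLHL24 at -1.26 is the lowest.

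The aminoacyl-tRNA synthetases, 6 of whose measured genes are also in the ATF4 list, had a median of -0.16 over 18 measured of 23. At an unadjusted p under 0.05, 2 were lower (AARS1 and SARS1) and 1 was higher (HARS1), against 7.83% and 4.73% of all genes. The folate, one-carbon and methionine list was divided. Of 27 measured, 4 were lower at that p (ALDH1L2, CTH, SHMT2 and MTHFD2, all of the ATF4 list as well) and 3 were higher, with a median of -0.04. The same shares of all genes apply. Without set 1, 2 or 3 the lower ones numbered 2, 4 and 3 and the higher ones 1, 4 and 2. The highest was SLC19A1, the reduced folate carrier, which read 111, 115 and 86.8 at 24 h and 195, 262 and 177 at 48 h. Its groups did not overlap and differed by 0.91 ± 0.17 (limma adjusted p = 0.0937).

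In control cells much of the ATF4 list had differences of the opposite sign. There the median of the 47 genes was 0.25, with 14 higher and 0 lower at an unadjusted p under 0.05, when 1.95% of all genes were higher. For 17 of the 47 the level was lower at 48 h in all 3 depleted sets and higher in all 3 control sets, a pattern that 2.39% of all genes had. ASNS read 1107, 705 and 715 in control cells at 24 h and 1399, 873 and 1109 at 48 h. It was thus higher on each depleted array of 24 h than on any control array of 24 h or 48 h, while the 48 h groups overlapped. The median of depleted minus control over the list was 0.73 at 24 h, 0.23 at 48 h and 0.08 at 72 h, against 0.01, 0.03 and -0.04 over all genes. The 24 h and 48 h gaps use the same depleted arrays as the step and are no separate evidence of it.

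The difference between the depleted and the control step was tested as an interaction term. By limma 0 of 27307 probe sets were called (0%), with a smallest adjusted p of 0.233 and 2214 probe sets (8.11%) or 991 genes (8.04%) at an unadjusted p under 0.05. Calls numbered 1, 6 and 5 with the pseudocount of 64, the stricter filter and the variance trend. Of the ATF4 list 24 genes were lower and 0 higher in this term at an unadjusted p under 0.05, against 3.88% of all genes lower. The 5 lowest by p were ALDH1L2 at -1.10 ± 0.18, ASNS at -1.18 ± 0.20, CTH at -1.25 ± 0.21, BCAT1 at -0.99 ± 0.18 and KLHL24 at -1.40 ± 0.25, with limma adjusted p of 0.233 to 0.285. BCAT1, a cytosolic aminotransferase of branched-chain amino acids, read 1995, 1769 and 1320 and then 1356, 1061 and 1026 in depleted cells, and its 4 probe sets ranged from -0.55 to 0.12. The 5 highest were C1orf105 at 1.50 ± 0.25, REG4 at 1.04 ± 0.20, SETBP1 at 1.68 ± 0.34, ZDHHC23 at 0.87 ± 0.18 and GPRC5B at 1.13 ± 0.25, with limma adjusted p of 0.233 to 0.366. SETBP1, ZDHHC23 and GPRC5B were lower at 48 h in all 3 control sets. SETBP1, which encodes a nuclear protein that binds SET, read 44.9, 36.2 and 19.8 in control cells at 24 h and was near background at 48 h, at 4.1, 1.4 and 5.1. The median of this term over all probe sets moved from 0.04 to -0.15 when arrays were centred on their median, so its values are relative to that shift.

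**Figure D3:**
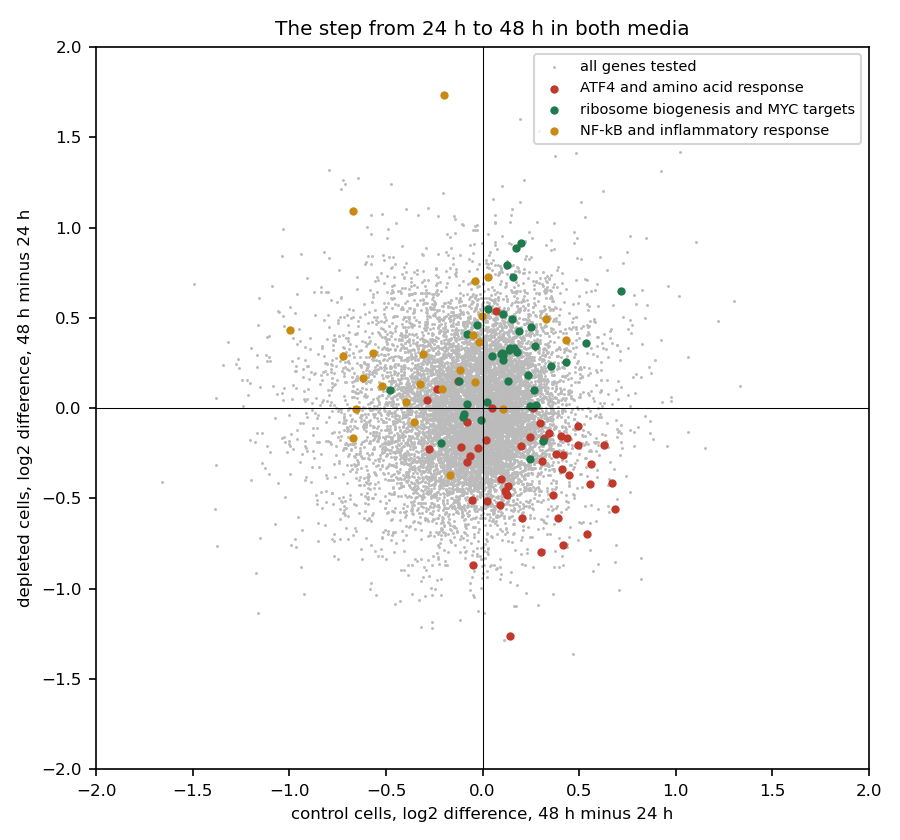
Each point is 1 of 12319 genes, with its log2 difference from 24 h to 48 h in control cells (horizontal) and in depleted cells (vertical); 3 gene lists are coloured. Across genes r was 0.05, a description only, and ATF4-list genes (red) lie mostly at lower right, ribosome biogenesis genes (green) mostly at upper right and NF-kB genes (yellow) mostly at upper left.

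Most ribosome biogenesis genes had higher values at 48 h. Of 47 listed 40 were measured and 34 of them had a positive difference, against 46.5% of all genes. At an unadjusted p under 0.05, 16 were higher and 0 lower, where 4.73% of all genes were higher, and the median was 0.30 (0.24, 0.23 and 0.34 by set). MRTO4, a nucleolar factor of the large ribosomal subunit, read 165, 123 and 142 at 24 h and 322, 241 and 275 at 48 h. The groups did not overlap, and the difference was 0.89 ± 0.17 (limma adjusted p = 0.0909). LYAR, a nucleolar protein whose promoter holds an E-box 64 to 59 bases before the start, read 120.3, 110.4 and 176 and then 263, 287.5 and 246, at 0.91 ± 0.22. NIP7, another subunit assembly factor, read 627, 413 and 702 and then 927, 1129 and 932.5, where the low 24 h array of set 2 widened the difference of 0.79 ± 0.22. The other probe sets of MRTO4, LYAR and NIP7 were at 0.34, 0.37 and 0.25. DDX21, a nucleolar helicase, was among the brightest members. It read 3066, 4788 and 2777 and then 3806, 6358 and 3317, so it was higher within each set by a small step of 0.32 ± 0.11, with set 2 above the others at both times.

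The count for ribosome biogenesis differed when a set was left out. It was 12 without set 2 and 5 without set 1 or without set 3, when 522, 423 and 453 of all genes were higher. After centring on array medians it was 7, and the list median was 0.21. In the main scaling 7 of the 40 genes had all 48 h arrays above all 24 h arrays, which held for 3.74% of all genes. The control step had a median of 0.14 with 2 higher and 1 lower, where 1.95% of all genes were higher and 4.97% lower. The interaction term had 3 higher and 1 lower, against 4.16% and 3.88% of all genes. The cytosolic ribosomal proteins themselves, the product line that such factors assemble, had a median of -0.05 over 49 measured of 72, with 0 of them under an unadjusted p of 0.05 in either direction. MYC read 1000.4, 653 and 1201 and then 1409, 699 and 1640, at 0.34 ± 0.17 and with overlapping groups.

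Most NF-kB target genes had higher values at 48 h of depletion, and the list had a negative median in control cells. Of 39 listed 25 were measured and 20 of these had a positive difference, against 46.5% of all genes. The median was 0.29 (0.18, 0.41 and 0.36 by set). At an unadjusted p under 0.05, 6 were higher and 1 lower, against 4.73% and 7.83% of all genes. CCL20, which attracts dendritic cells and lymphocytes to the mucosa, read 128, 21.5 and 84.1 at 24 h and 335.5, 220.4 and 223.5 at 48 h. This gave the largest difference of any gene measured, 1.73 ± 0.38 (limma adjusted p = 0.124), or 3.33-fold, and the groups did not overlap. CXCL8, interleukin 8, read 37.9, 71.9 and 13.6 and then 124, 96.4 and 70.4, at 1.09 ± 0.28. It was higher in every set, but set 3 at 48 h was just below set 2 at 24 h. IER3, an early response gene, read 307, 289.5 and 245 and then 436, 379 and 400.2, at 0.51 ± 0.16. IL18, a cytokine of resting epithelium, was the lower member, at 466, 314 and 336 and then 315.5, 238 and 292. Without set 1, 2 or 3 the higher members numbered 3, 4 and 3, when 423, 522 and 453 of all genes were higher.

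In control cells the NF-kB list had a median of -0.21, with 0 higher and 6 lower at an unadjusted p under 0.05, where 4.97% of all genes were lower. The interaction term had 7 higher and 0 lower, where 4.16% of all genes were higher. Of the 25 genes, 2 were higher in all 3 depleted sets and lower in all 3 control sets, as were 1.96% of all genes. CXCL8 read 134, 206 and 44.6 in control cells at 24 h and 87.2, 97.1 and 27.2 at 48 h, which was lower in all 3 sets. CCL20 read 383, 342.5 and 278 and then 329.9, 361.5 and 197, with set 2 the exception. Each control array of 24 h was thus above the depleted arrays of 24 h for CCL20, and at 48 h the groups overlapped. CD14, a receptor for bacterial lipopolysaccharide that was listed among the leukocyte markers, was 1 of the 4 measured there. It read 74.1, 76.7 and 51.2 and then 113, 84.9 and 98.1, at 0.47 ± 0.20. The other leukocyte markers measured, LYZ, CD3E and ITGAM, differed by 0.03 ± 0.17, 0.26 ± 0.46 and -0.20 ± 0.38, each less than its SE. The part of other cells in the NF-kB values was not tested.

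**Figure D4:**
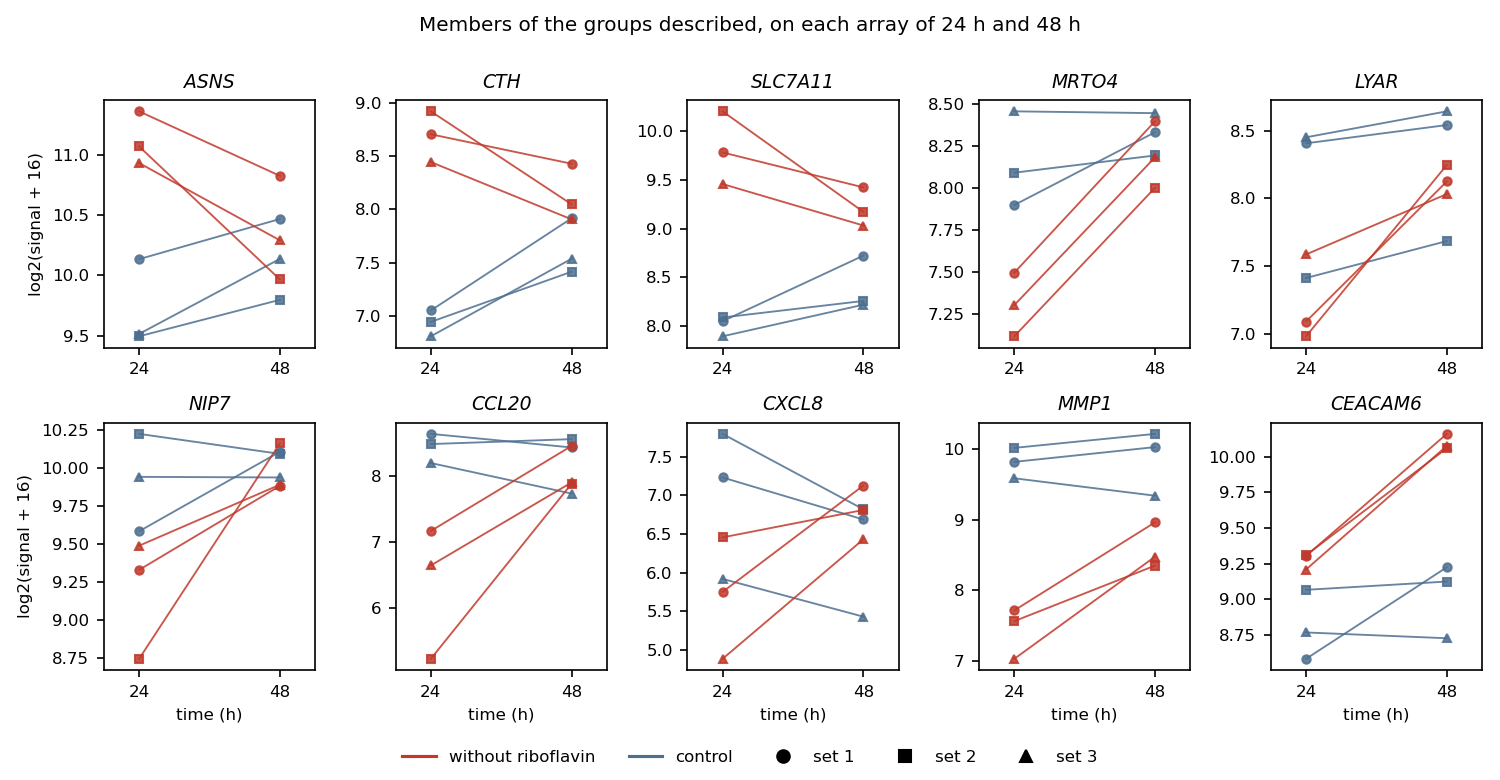
Levels of 10 genes of the groups described, on the log2(signal + 16) scale at 24 h and 48 h; each line is 1 set, red without riboflavin and blue control. Red lines go down in all 3 sets for ASNS, CTH and SLC7A11 and up in all 3 for the other 7 genes, while the blue lines of ASNS, CTH and SLC7A11 go up in all 3 sets.

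Genes of growth factor and stress signalling held further positive differences. Over all genes 4.73% were higher and 7.83% lower at an unadjusted p under 0.05. Of the 35 measured AP-1 and immediate early genes 7 were higher and 1 lower at that p. Their median was 0.10, or 0.02 after centring on array medians. The higher ones numbered 4, 7 and 4 without set 1, 2 or 3. DUSP6, a phosphatase that restrains ERK and is induced by it, read 179.7, 169.7 and 166.5 at 24 h and 413, 314 and 384.5 at 48 h. The 3 arrays of each time lay close together, and the difference was 1.03 ± 0.25. CCN1, a matricellular protein, read 376, 370.1 and 398 and then 759.9, 721 and 606, at 0.83 ± 0.28, and differed by 0.61 in control cells. The TGF-beta and BMP list had a median of 0.24 over 24 genes, with 3 higher and 0 lower. In it ID1, an inhibitor of differentiation factors, read 950.3, 738 and 837 and then 1909.5, 1079.7 and 1391, at 0.75 ± 0.16. The YAP list had 3 of 20 higher and a median of 0.06, against 0.26 and 5 higher in control cells. Centred on array medians, the YAP median was -0.03.

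Differences of intestinal differentiation genes were more often positive than negative. Of 37 measured enterocyte genes 9 were higher and 0 lower at an unadjusted p under 0.05, against 4.73% and 7.83% of all genes. When any single set was left out 7 were higher, and 2 were lower without set 2. The median was 0.15, or 0.11, 0.38 and 0.12 by set, and 0.06 after centring on array medians, when 8 were higher. CEACAM6, an adhesion molecule of colon epithelium, read 616, 618 and 575.5 at 24 h and 1129.7, 1052 and 1065 at 48 h. The arrays of each time were nearly alike and the difference was 0.83 ± 0.15 (limma adjusted p = 0.0795). DPP4, a brush border peptidase, read 870.1, 778 and 1081 and then 1442, 1144 and 1415, at 0.55 ± 0.15. CEACAM1 at 0.88 ± 0.29 and CDHR2, a cadherin of microvilli, at 0.67 ± 0.19 also had no overlap. Among goblet and secretory products 3 of 14 were higher, REG4, TFF1 at 0.61 ± 0.19 and AGR2 at 0.47 ± 0.15, and CHGB, a granin of enteroendocrine cells, was lower at -0.70 ± 0.20. The 11 epithelial identity markers had a median of 0.00, with 5 positive and 6 negative differences and 1 higher at an unadjusted p under 0.05. The higher one was CDX1, an intestinal transcription factor, which differed by 0.85 ± 0.35 from near-background signals of 5.7, 18.0 and 9.4, and set 3 stayed at 9.1.

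Caco-2 cells also make proteins of the fetal liver, and 26 such genes had a median of 0.17. At an unadjusted p under 0.05, 5 were higher and 1 lower, against 4.73% and 7.83% of all genes. The higher ones numbered 5, 7 and 3 without set 1, 2 or 3. ITIH2, a chain of a plasma protease inhibitor, read 140.1, 119 and 113 and then 331, 222 and 235, at 0.98 ± 0.19 (limma adjusted p = 0.0937). Albumin differed by 0.92 ± 0.24 and alpha-fetoprotein (AFP) by 0.68 ± 0.24. Control cells showed 1.11 (ALB) and 0.96 (AFP) over the same interval. Among matrix genes 4 of 30 were higher and 1 lower, with a median of 0.04 that became -0.04 after centring on array medians. MMP1, interstitial collagenase, read 194, 173 and 115 at 24 h and 483, 310.5 and 340.5 at 48 h, without overlap, at 1.16 ± 0.21 (limma adjusted p = 0.0862) beside 0.05 in control cells. PI3, the elastase inhibitor elafin, differed by 0.73 ± 0.16. COL4A2 differed by -1.01 ± 0.34 on its brighter probe set and by 0.02 on the other. Of the S100, keratin and epithelial stress genes 3 of 24 were higher and 1 lower, with a median of 0.14.

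Counts in the cell cycle lists were small. The 60 G2/M genes had a median of 0.00, which became -0.08 after centring on array medians. At an unadjusted p under 0.05, 1 was higher and 4 were lower, where 4.73% of all genes were higher and 7.83% lower. These counts were not above those shares. Without set 1, 2 or 3 the lower ones numbered 3, 2 and 6. CDC25C, the phosphatase that starts mitosis, read 259.3, 134 and 259.1 and then 184.5, 62.0 and 155, lower in each set at -0.70 ± 0.17, with set 2 low at both times. NEK2, a centrosomal kinase, differed by -0.49 ± 0.13 without overlap. The 57 G1/S genes had 44 positive differences and a median of 0.14, which was 0.05 after centring on array medians. Of these genes 6 were higher, such as MCM10 at 0.44 ± 0.15 (0.02 to 0.51 over its 3 probe sets), and 2 lower. The higher ones numbered 3 after centring, and 3, 11 and 1 without set 1, 2 or 3. Of 16 measured replication-dependent histone genes 3 were higher, and all were dim. H2AC14 read 15.3, 16.1 and 6.7 and then 38.3, 91.5 and 55.2, at 1.40 ± 0.24 (limma adjusted p = 0.0736).

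Regulators of cell cycle exit were mixed. The 25 CDK inhibitors and p53 targets had a median of -0.13. At an unadjusted p under 0.05, 8 were lower and 3 higher, against 7.83% and 4.73% of all genes. The lower ones numbered 2, 3 and 3 without set 1, 2 or 3. CCNG2, a cyclin linked to growth arrest, read 609, 1969 and 402 at 24 h and 355, 377 and 230.2 at 48 h. It was lower in each set, with the high 24 h array of set 2 widening the difference of -1.28 ± 0.29. CDKN1A, the p21 inhibitor, lay on the other side, at 38.4, 39.3 and 55.3 and then 75.8, 84.9 and 88.8, a difference of 0.73 ± 0.22 without overlap and -0.46 in control cells. CCNG1 differed by -0.39 ± 0.13, and the 5 probe sets of ZMAT3 ranged from -0.43 to 0.38. The control median was -0.12.

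Of the 8 genes of riboflavin transport and flavin cofactor synthesis 6 were measured, with a median of 0.22. SLC25A32, which brings FAD and folate into mitochondria, read 289, 201 and 264 at 24 h and 342, 350.6 and 356 at 48 h. It was the 1 member without overlap, at 0.47 ± 0.15, beside 0.30 in control cells. FLAD1, the FAD synthase, read 112, 123 and 184 and then 161, 191 and 189, at 0.36 ± 0.14, while its other probe set was at -0.01. These 2 were the members at an unadjusted p under 0.05, and 1 member was at that level when any single set was left out. SLC52A3, the apical riboflavin transporter, was near background at 19, 16.2 and 17.8 and then 9.1, 49.1 and 31.0. SLC52A2 read 184, 126 and 257 and then 176, 171 and 239. RFK, the riboflavin kinase, read 171, 303 and 99.6 and then 203, 219 and 148. ENPP1, an ectoenzyme that can cleave FAD, read 73.9, 85.6 and 42.9 and then 61.3, 87.1 and 50. The differences of these 4 were 0.34 ± 0.36, 0.08 ± 0.20, 0.10 ± 0.18 and -0.01 ± 0.17, each smaller than its SE, and the arrays of both times overlapped in all 4.

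The listed enzymes that use FAD or FMN, 70 measured of 94, had a median of -0.03, close to that of all genes. NOX1, described above as an FAD enzyme, was not on this list and is not counted in it. At an unadjusted p under 0.05, 5 members were higher and 2 lower, against 4.73% and 7.83% of all genes. Without set 1, 2 or 3 the higher ones numbered 5, 3 and 1 and the lower ones 0, 3 and 2. AIFM2, which regenerates ubiquinol at the membrane, read 250.5, 182 and 233.5 and then 269.4, 363 and 380.0, at 0.57 ± 0.17, with its other probe set at 0.04. MICAL2, an oxidase of actin, differed by 0.51 ± 0.19, though 1 of its probe sets was at -0.07. D2HGDH was near background at 24 h and differed by 1.26 ± 0.42. On the lower side PCYOX1 differed by -0.40 ± 0.14, with its other probe set at 0.46. Respiratory chain lists had medians of 0.09 for 33 complex I subunits (0 higher, 2 lower) and 0.08 for 35 subunits of complexes II to V (3 higher, 1 lower). Both were 0.00 after centring on array medians, when the median of all genes was -0.11. Fatty acid oxidation and PPAR targets had a median of -0.05 over 33 genes, with 4 lower (0, 2 and 3 without set 1, 2 or 3) and 0 higher, including DECR1 at -0.40 ± 0.16 and ACADSB, a flavin-dependent dehydrogenase, at -0.35 ± 0.16.

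Glycolysis and hypoxia genes included the enzymes of lactate production. Of 32 measured 6 were higher and 3 lower at an unadjusted p under 0.05, against 4.73% and 7.83% of all genes. The median was 0.11 in depleted and also 0.11 in control cells. LDHA, lactate dehydrogenase, read 2596, 2715 and 2284 at 24 h and 3538, 4112 and 3381 at 48 h. All 3 sets were higher and the groups did not overlap, at 0.53 ± 0.13. HK2, a hexokinase, read 221, 230.3 and 237 and then 327, 400.5 and 388, at 0.66 ± 0.17. TXNIP, an inhibitor of glucose uptake, read 197, 257 and 179 and then 138.5, 84.9 and 92.9, at -0.91 ± 0.20, and at -1.18 in control cells. BNIP3L, a mitophagy receptor, read 547, 388 and 412 and then 273, 184 and 253, at -0.88 ± 0.18.

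Lists of lipid synthesis, autophagy and noncoding RNAs held small counts at an unadjusted p under 0.05. Over all genes 4.73% were higher and 7.83% lower. Cholesterol synthesis had 3 of 22 higher and a median of 0.14, with FDPS at 0.47 ± 0.14 and 0.46 in control cells. Fatty acid and triglyceride synthesis had 3 of 27 higher and 3 lower, with ACSL5 at -0.67 ± 0.17 and GPAM at -0.60 ± 0.17 on its brighter probe set and 0.13 on the other. The lysosome and autophagy list had 5 of 46 lower (1 without set 1) and 0 higher, led by SESN3 at -0.84 ± 0.19, whose 4 probe sets ranged from -0.84 to 0.42. Of the noncoding RNAs 3 of 14 were lower (1, 2 and 1 without set 1, 2 or 3). EPB41L4A-AS1, host of a small nucleolar RNA, read 1885, 2154 and 1371 and then 1089.7, 853 and 832, at -0.94 ± 0.17 (limma adjusted p = 0.0909), with its other probe set at -0.11. NRF2 targets had 1 of 36 higher and 3 lower, and a median of 0.05 that became -0.03 after centring on array medians.

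Counts in the other lists were as follows, at an unadjusted p under 0.05, where 4.73% of all genes were higher and 7.83% lower. Heat shock proteins had 4 of 19 higher (1, 2 and 3 without set 1, 2 or 3) and 0 lower, with HSPA4L at 0.59 ± 0.18. Endoplasmic reticulum chaperones had 2 higher and 3 lower of 33. Drug metabolism genes had 4 higher and 4 lower of 47, among them ALDH6A1, an enzyme of valine breakdown, at -0.69 ± 0.14. Proteasome subunits had 2 of 30 higher, TCA cycle genes 2 of 25 higher, iron and haem genes 3 of 23 lower and interferon genes 1 of 20 lower. Wnt and stem cell genes had 1 higher and 1 lower of 25, and metallothioneins 1 lower of 9, MT1G at -0.76 ± 0.28.

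**Figure D5:**
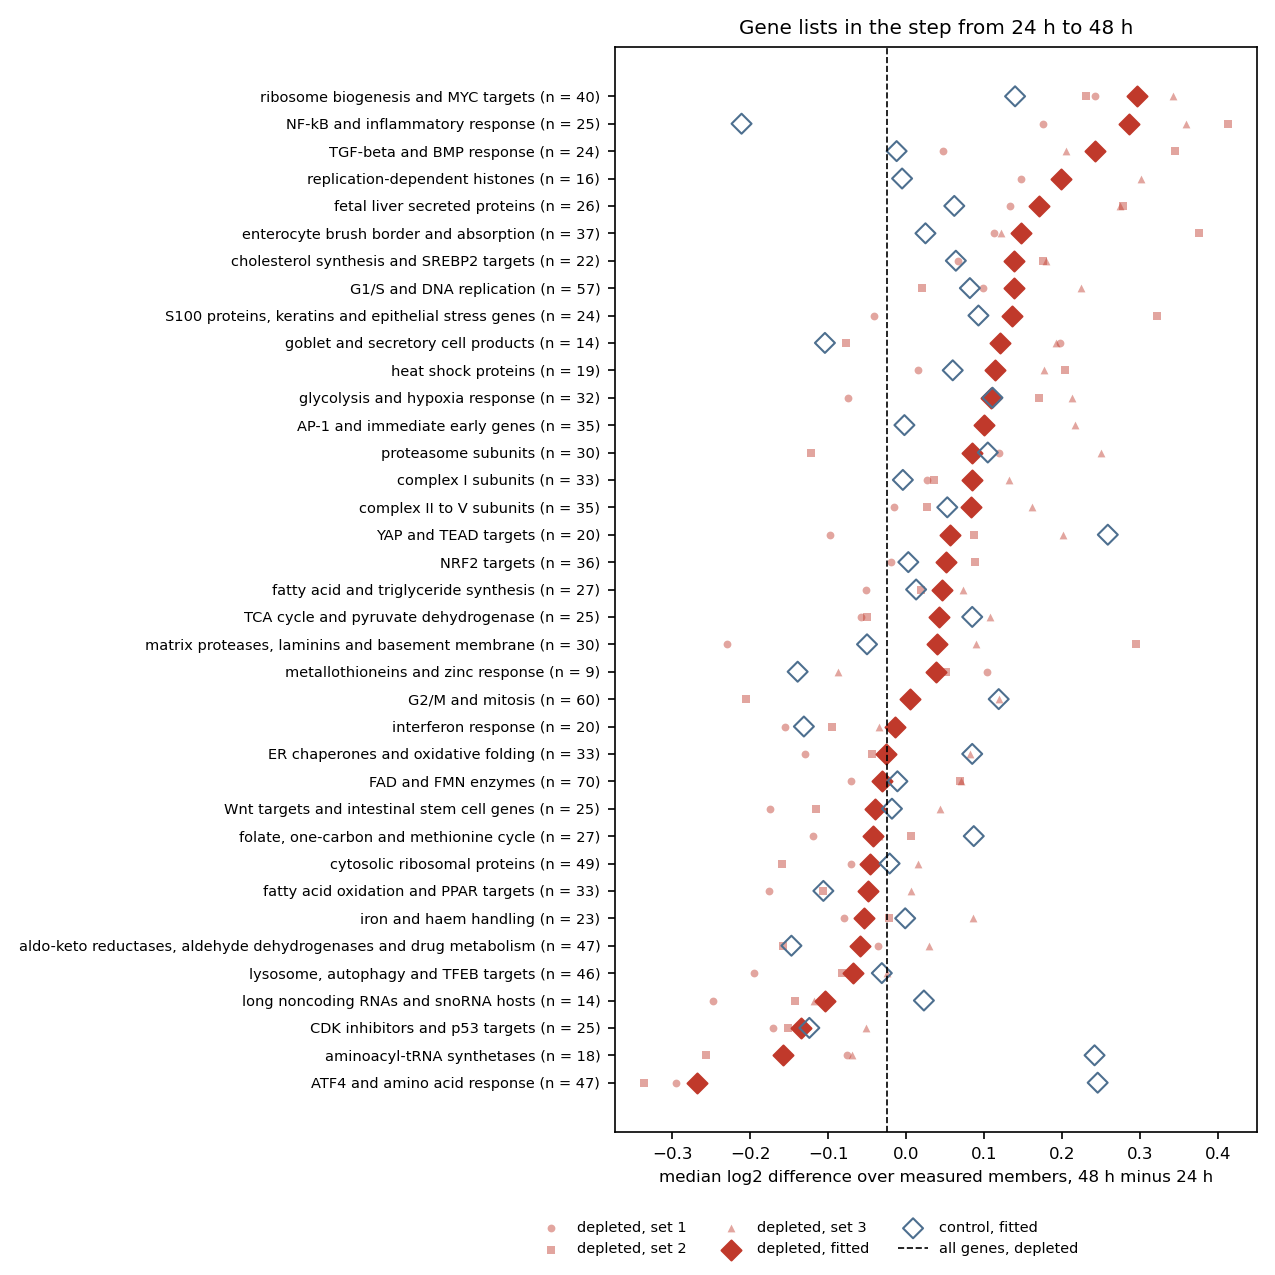
Median log2 difference, 48 h minus 24 h, over the measured members of each gene list with at least 9 measured. The epithelial identity markers and smaller lists, such as that of riboflavin transport, are not drawn. Red diamonds are depleted cells (fitted), small red marks the 3 sets and open blue diamonds control cells. The dashed line is all 12319 genes in depleted cells at -0.02. The ATF4 list is lowest at -0.27 and ribosome biogenesis highest at 0.30, and the open diamonds of the ATF4 and tRNA synthetase lists lie at 0.25 and 0.24.

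Levels at 72 h place the step in the longer course, as a description with no test. On the log2 scale the mean of ASNS in depleted cells was 11.12 at 24 h, 10.36 at 48 h and 11.19 at 72 h. KLHL24 went from 7.64 to 6.38 and then 8.23, CCNG2 from 9.65 to 8.37 and then 9.86, and CTH from 8.69 to 8.13 and then 9.46. These 4 were thus lowest at 48 h and higher again at 72 h. SLC7A11, at 9.82, 9.21 and 9.90, and BNIP3L, at 8.85, 7.96 and 8.93, had the same course, as did ESRP1. Some other lower genes did not. NEB went from 7.21 to 6.34 and then 5.74, and ADH6 from 7.29 to 6.26 and then 5.76. PCK2 read 8.80 at 48 h and 8.77 at 72 h. ALDH1L2, at 7.06, 6.26 and 6.37, and BCAT1, at 10.72, 10.17 and 10.25, stayed well below their 24 h levels. In control cells ASNS went from 9.71 to 10.13 and 11.00. NPPB went from 7.81 to 9.32 and 9.94 and NOX1 from 7.16 to 8.36 and 8.79 in depleted cells. In control cells NPPB went from 9.19 to 9.57 and then 6.55, and NOX1 from 8.22 to 8.84 and then 7.45. Both were thus higher at 48 h than at 24 h there as well, and lower at 72 h. MRTO4 was highest at 48 h, at 7.31, 8.20 and 7.73.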

How the data were processed

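The authors deposited MAS5 intensity signals, per the submitters' processing notes; its version was not given in the sources used here. On every array the mean signal after trimming 2% at each end was 100.01. Signals were used as log2(signal + 16). Of 54675 probe sets 62 are controls and were dropped. The filter kept the brighter probe sets, those averaging 5.1546 (a signal of 19.62) or more, which left 27307 to test. Of these 22946 carried 1 gene symbol, 1096 several and 3265 none, and symbols came from the platform annotation. A gene was read from its brightest probe set with 1 symbol, giving 12319 genes.

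All 18 arrays were fitted in limma 3.58.1 (R 4.3.3) with 6 group means and the set as a block, with Benjamini-Hochberg adjustment over all probe sets tested (threshold 0.05). Prior degrees of freedom were 3.62 and residual 10. After group means were removed, arrays of a set correlated at 0.302 to 0.602 and arrays of different sets at -0.754 to 0.163. Removing a mean of 3 arrays by itself lowers the values between different sets. Between depleted 24 h and 48 h, arrays of a set correlated at 0.35 to 0.377 and arrays of different sets at -0.434 to 0.137. The positive values within sets go with the pairing, which comes from the sample numbering. The script was tested on simulated data. Detection calls were not used here, and the number of arrays limits precision.

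Members, lists and tests were chosen with earlier results of these data known. Genes named were the 5 with the smallest p in each direction, the leading members by p of each list (at most 4), all riboflavin genes, and the 5 smallest p each way in the interaction; any other gene was chosen after its values were seen. Figures were drawn with matplotlib 3.10.9.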

Additional observations from a re-analysis of the deposited data

How the results depend on the processing

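The count of 0 in depleted cells at an adjusted p under 0.05 held in limma without the replicate block (1236 probe sets at an unadjusted p under 0.05, against 3236 with it), with only the 6 arrays compared (2030), with all 3 other scalings, with a pseudocount of 1 and with no filter. It became 90 with a pseudocount of 64, 178 with the filter at the 75th percentile and 160 with a variance trend, and the interaction gave 1, 6 and 5. The control step gave 1 with the trend. The cause was not tested, beyond the fewer probe sets tested, 13654, under the stricter filter. Leaving out single arrays or sets gave 0 to 3. Pairing mattered for list counts: without the block 9 ATF4 genes were lower (18 with it) and 5 ribosome biogenesis genes were higher (16 with it). After centring on array medians 5 values near 0 changed sign: COL3A1 -0.036, DCN -0.006, LUM -0.001, LYZ -0.054 and SLC52A2 -0.004. Leaving out arrays or sets gave changing signs for CD3E (-0.20 to 0.61), COL3A1 (-0.12 to 0.18), DCN (-0.16 to 0.50), ENPP1 (-0.11 to 0.093), ITGAM (-0.53 to 0.12), LUM (-0.038 to 0.21), LYZ (-0.08 to 0.21), MT2A (-0.014 to 1.17), PECAM1 (-0.003 to 0.55), RFK (-0.11 to 0.37), SLC52A2 (-0.079 to 0.17) and SLC52A3 (-0.10 to 0.75). Of the 171 genes taken by the naming rule, the other 159 kept their direction under every alternative run. Most were picked for the smallest p of their list or direction in this same step. A kept direction was therefore likely beforehand and is no separate evidence. Signals near background limit dim genes such as C1orf105 and the histones.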

Other observations

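Genes outside the lists, chosen after their values were seen from the 49 called by all 3 settings that made calls, included receptors, a channel and regulators of growth. SCNN1A, a subunit of the epithelial sodium channel, read 388, 276 and 346.5 at 24 h of depletion and 114.5, 126 and 167 at 48 h. The groups did not overlap and the difference was -1.22 ± 0.26 (SE, n = 3 sets), beside -0.26 in control cells. ERBB3, a receptor of the EGF family, read 843, 569 and 906 and then 445, 238 and 634, lower in each set at -0.87 ± 0.20. ITGA9, an integrin chain, read 198, 282 and 196 and then 108, 78.8 and 104, at -1.09 ± 0.18 without overlap. TNFRSF12A, the receptor of the cytokine TWEAK, read 108, 139.6 and 295.5 and then 247, 538 and 559, higher in each set at 1.27 ± 0.26. PHLDA2, an imprinted growth regulator, read 535, 563 and 521.5 and then 898.5, 1005 and 1051, at 0.85 ± 0.19, beside 0.03 in control cells. CDC14B, a phosphatase of mitotic exit, read 972.5, 894 and 868.5 and then 462, 509 and 551, at -0.83 ± 0.14. By limma in the fit of the report none of these 6 passed an adjusted p of 0.05.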
